A study of Mus musculus with 2 samples.

Results

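The cytosolic ribosomal protein genes were described in a map of H3K4me3, trimethylation of lysine 4 of histone H3, from mouse prospermatogonia, the fetal germ cells that later found spermatogenesis. Oct-GFP+ cells sorted at E17.5 were used, 130000 for each CUT&RUN assay, a method that sequences the DNA cut free by a nuclease tethered to an antibody. There was 1 library with an H3K4me3 antibody and 1 with rabbit IgG, and the labels name no genotype or strain. All values come from the H3K4me3 peak list, and the IgG library was not analysed here. Genes were taken by name from the 21887 protein-coding genes of the GRCm38.p6 (mm10) annotation: symbols of Rpl or Rps and a number, with Rplp0, Rplp1, Rplp2 and Rpsa. Names of S6 kinases and of an Rps19-binding protein, pseudogenes, and genes on X and Y were left out, which gave 84 members. They comprised 43 genes of the large subunit and 30 of the small subunit, called canonical here, 8 paralogs whose symbol ends in l or in l and a number, and 3 genes with a retrocopy name.

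The ribosome makes protein in every cell, and its large and small subunits each hold one copy of most of their proteins, so cells need these proteins in matched amounts. Their genes are transcribed strongly in most cell types, and many host small nucleolar RNAs (snoRNAs) in their introns. Their transcripts usually begin with a tract of C and T, the terminal oligopyrimidine tract, through which the mTOR pathway controls their translation. H3K4me3 lies around the start sites of active or poised genes, most of all at promoters rich in CpG. Copies of these genes made by retrotransposition are common in mammalian genomes, and a few of them, such as Rpl10l and Rpl39l, make proteins known for their roles in male germ cells.

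All 73 canonical ribosomal protein genes held an H3K4me3 peak (95% Wilson interval 95 to 100%). A gene counted as marked where a peak lay in it or within 1 kb of it. In this library 83.4% of all protein-coding genes were marked, and 73.9% of those whose length lay within the range of the canonical genes, 982 to 11774 bp. Each of the 73 also had a peak within 1 kb of an end of the gene, against 74.5% of all protein-coding genes. With the gene windows moved by 100 kb, 20 of the 73 (27.4%) held a peak, against 59.9% of all genes, whose median length was 17169 bp where that of the canonical genes was 3183 bp. With the end windows moved in the same way, 18 of 73 (24.7%) and 23.9% of all genes held a peak. Over all 84 members 81 were marked (96.4%, 90.0 to 98.8%), and the 3 without a peak were Rpl32l, Rpl37rt and Rps27rt.

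**Figure D1:**
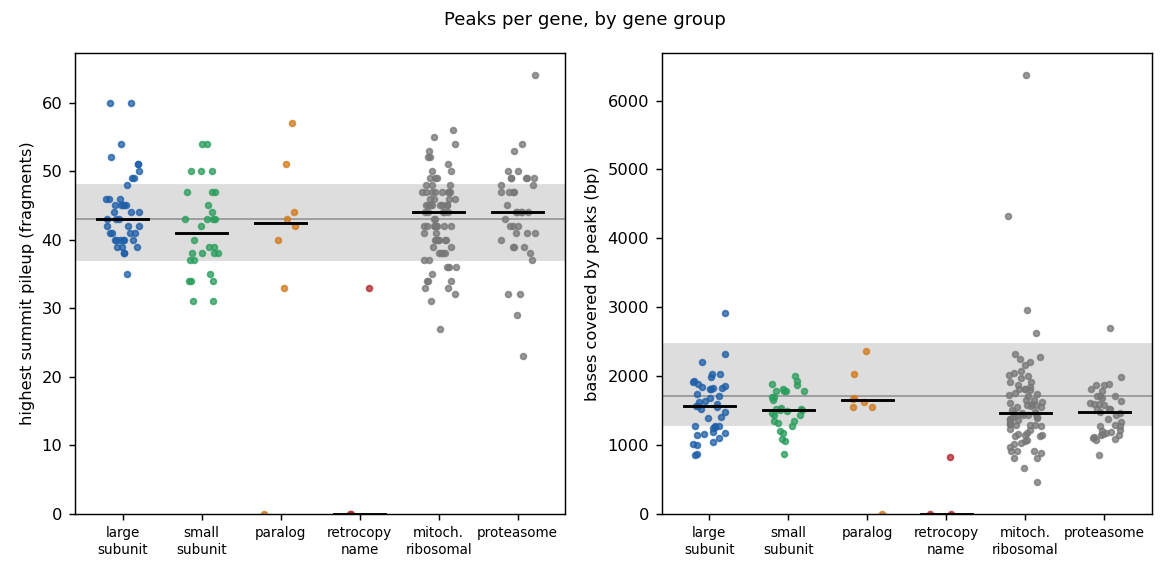
Highest summit pileup (fragments) and bases covered by peaks (bp) at each ribosomal protein gene, one point per gene, by class, with mitochondrial ribosomal protein and proteasome genes beside them; black bars are class medians with unmarked genes at 0, and the grey band and line are the interquartile range and median over marked protein-coding genes. Canonical genes sit between 31 and 60 fragments, and 1 paralog and 2 genes with a retrocopy name sit at 0.

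The height of the mark was much the same from one canonical gene to the next. The summit pileup, the number of fragments over the highest point of a gene's peaks, had a median of 43 fragments and ran from 31 to 60 at Rpl26 and Rpl29. Its SD over the 73 genes was 6.0 fragments. The square root of the mean of 43.2, the spread of counts at a fixed place, is 6.57. A summit is the highest of many positions and need not follow that spread. For 71 of the 73 genes the exact Poisson interval of the gene's own pileup held the median of 43, and the exceptions were Rpl26 and Rpl29. Over all marked protein-coding genes the median was also 43 fragments, with an SD of 10.2, and the interval held 43 at 85.0% of them. The genes of the mitochondrial ribosome had the same narrow spread, with an SD of 5.91 and 77 of 78 intervals that held 43. Most canonical genes therefore could not be ranked by pileup at this depth. Peaks covered a median of 1540 bp of a canonical gene and its flanks, up to 2909 bp at Rpl19, against 1705 bp over all marked genes and 1431 bp over those of the canonical length range. The mark stood in 1 peak at 36 of 73 genes (49.3%) and in up to 4 peaks at the others, a share near the 49.4% of marked genes of the canonical length range.

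Fold enrichment is the summit pileup over the local background that the peak caller used. Whether the IgG library entered that background is not stated in the sources used here. The median of the highest fold was 5.76 over the canonical genes, from 3.10 at Rpl35 to 9.55 at Rpl29. It was 6.92 over all marked genes and 6.10 over marked genes of the canonical length range. A fold of at least 5 was reached by 57 of 84 members (67.9%) and by 50 of 73 canonical genes (68.5%), against 71.2% of all protein-coding genes and 52.9% of those of the canonical length range. The members thus lay under the first share and above the second. Genes without a peak count as below 5 in these shares, and 73.9% of the genes of that length range were marked. Among marked genes the canonical median fold was the lower, 5.76 against 6.10. The local background under the highest summit had a median of 6.70 fragments at canonical genes, from 4.47 to 12.5, and 5.78 over all marked genes. Since the fold is computed from pileup and background, and pileup varied little, the order of folds among the genes was largely that of their backgrounds (Pearson's r = -0.80, Spearman's rho = -0.82 over 73 genes, with 1 library in common). Rpl35 shows this: its 40 fragments stood on a background of 12.2, whereas the 41 fragments of Rplp1 stood on 5.42 and gave a fold of 6.54.

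**Figure D2:**
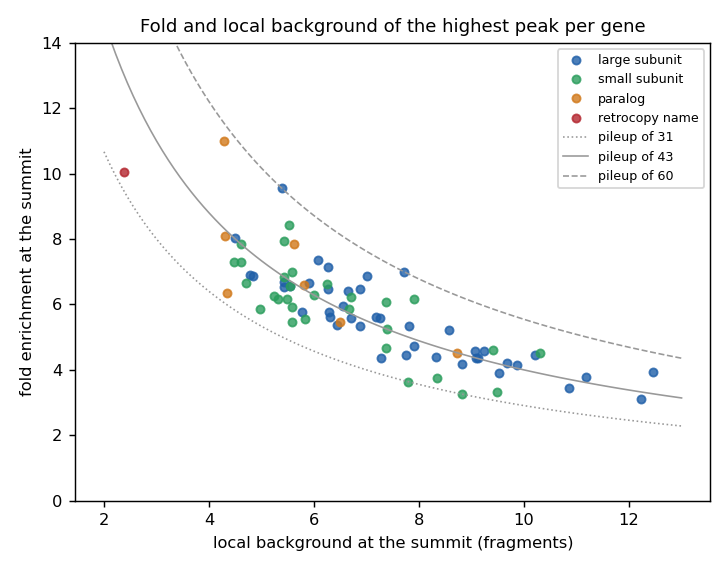
Fold enrichment at the summit of the peak with the highest pileup, against its local background (fragments), for each marked ribosomal protein gene, coloured by class; smooth lines give the fold that a fixed pileup yields at each background. The genes follow the lines downward, from folds of up to 10.98 at low background to 3.10 at Rpl35, whose background is 12.2 fragments.

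Sequences around the start were available from RefSeq (build GRCm38.p6) for 64 of the 84 members, 53 of them canonical. A window of 15 bases before and 15 after the listed start is shown for genes with a long run of C and T there, then for 2 genes with a run of 2 bases. The capitals mark the longest run, and each sequence is the sense strand.
Rpl7a, chr2:26910792-26910821, plus strand: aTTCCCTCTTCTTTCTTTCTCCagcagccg
Rpl27a, chr7:109519180-109519209, plus strand: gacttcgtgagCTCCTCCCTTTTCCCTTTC
Rpl35, chr2:39005117-39005146, minus strand: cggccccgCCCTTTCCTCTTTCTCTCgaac
Rpl15, chr14:18270972-18271001, minus strand: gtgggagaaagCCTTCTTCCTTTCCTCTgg
Rpl14, chr9:120571502-120571531, plus strand: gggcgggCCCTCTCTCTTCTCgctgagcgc
Rps10, chr17:27635230-27635259, minus strand: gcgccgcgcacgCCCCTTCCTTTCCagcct
Rpl24, chr16:55966260-55966289, plus strand: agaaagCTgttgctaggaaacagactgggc
Rps3a1, chr3:86142654-86142683, minus strand: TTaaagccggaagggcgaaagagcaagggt
The run spans 21 bases in Rpl7a, 19 in Rpl27a, 18 in Rpl35, 17 in Rpl15, 14 in Rpl14 and 13 in Rps10. A run of at least 8 bases of C and T was found in this window in 22 of 53 canonical genes (41.5%), and in 11.7% of the 17492 protein-coding genes with a listed start. The start used is the outermost of those listed, so a gene with several listed starts can have a longer run at another of them. An annotated gene can begin further upstream than any listed start, as at Rpl19 and Rps2. Rpl24 and Rps3a1 each have only 1 listed start.

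The mark sat over the start of nearly every canonical gene that could be placed. A peak lay over a listed start in 52 of 53 genes, against 60.2% of all genes with a listed start. A summit lay within 1 kb of a listed start in all 53, against 71.3% of all genes. It lay within 500 bp in 43 of 53 (81.1%), against 58.3% of all genes with a listed start. The highest summit had a median position of -11 bp, with 28 genes upstream of the start and 24 downstream, and at Rps27 it fell on the listed start itself. Coverage of the canonical genes reached 96.2% at 100 bp upstream and stayed at or above 50% from -700 to 800 bp. It was 0% between -1500 and -1300 bp. Set beside the 10115 genes that also have a peak over this start, coverage downstream was 81.1% and 81.5% at 500 bp, 71.7% and 66.2% at 700 bp, 34.0% and 34.3% at 1000 bp, and 5.66% and 14.1% at 1300 bp. Upstream, 75.5% of the canonical genes and 60.9% of those genes were covered at -500 bp, and 11.3% and 15.3% at -1000 bp. In 34 of the 53 genes (64.2%) more bases were covered in the 1 kb downstream than in the 1 kb upstream, against 47.1% of all genes with a listed start and 65.4% of those with peak bases on either side, so the canonical share was near that of genes with a peak there.

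**Figure D3:**
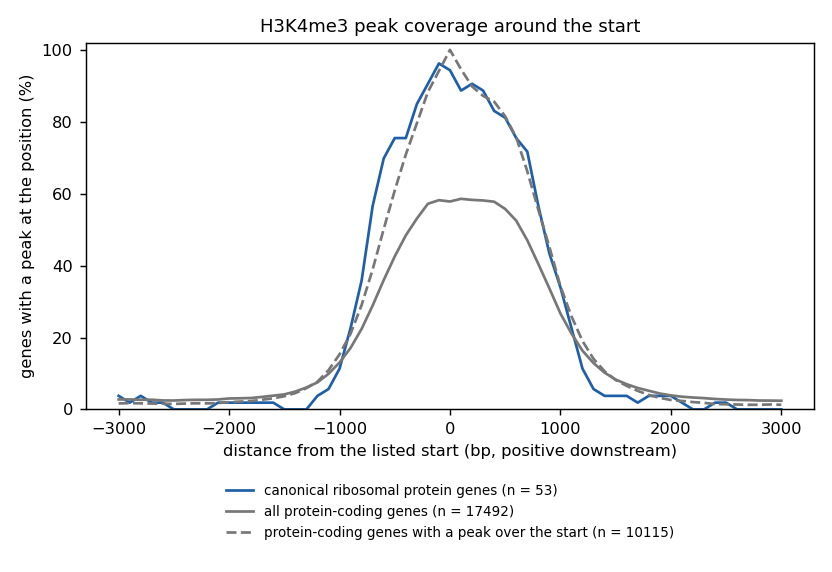
Percent of genes with an H3K4me3 peak at each distance (bp) from the listed start, for 53 canonical ribosomal protein genes, all 17492 protein-coding genes with a listed start, and the 10115 of them with a peak over that start. The canonical curve reaches 96.2% at -100 bp and lies above that of the 10115 genes at -500 bp and below it at 1300 bp.

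Rps3a1, which makes a small subunit protein also known for work outside the ribosome, was the one placed canonical gene without a peak over its start. Its 3 peaks of 38, 24 and 31 fragments lay on both sides, and the listed start fell in the gap between the first and the second. Rpl22, which makes an RNA-binding protein of the large subunit, has a second listed start, and the summit of its single peak of 39 fragments lay 16 bp from that one and 1306 bp from the outermost. The highest summit was more than 1 kb from every listed start at Rpl19 and Rpsa. At Rpl19 the highest of 4 peaks had its summit 302 bp from a listed start of Cacnb1. The annotated Rpl19 gene begins upstream of its listed starts, at chr11:98022003, and this peak covers that end. Position therefore does not assign the peak to either gene. The peaks beside the listed starts of Rpl19 had 39 and 37 fragments. Rpsa, which makes the small subunit protein also called the laminin receptor, had 33 and 26 fragments at its start and 43 fragments in a peak of 186 bp at 2442 bp downstream (chr9:120130134-120130319).

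**Figure D4:**
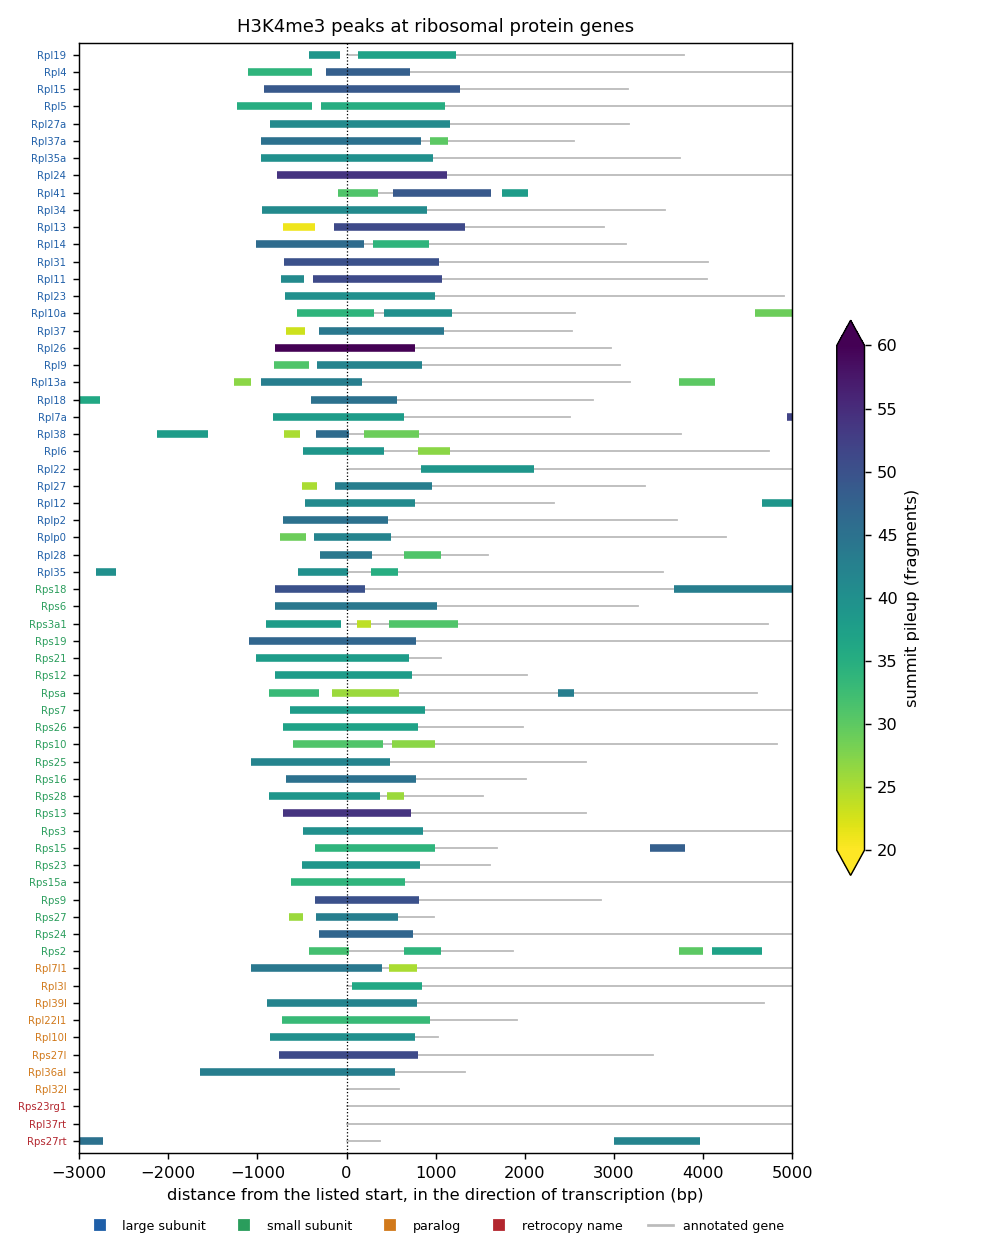
H3K4me3 peaks from 3000 bp upstream to 5000 bp downstream of the listed start (bp, direction of transcription) in the 64 ribosomal protein genes with a listed start, coloured by summit pileup (fragments), with grey lines for the annotated gene. Peaks lie over the start of nearly all canonical genes, and Rpl32l, Rps23rg1, Rpl37rt and Rps27rt have none within 1000 bp of it.

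Among the 43 large subunit genes the highest pileups were those of Rpl26 and Rpl29, with 60 fragments each (45.8 to 77.2), followed by Rpl24 with 54. Rpl26 had a single peak of 1566 bp (chr11:68900767-68902332), and Rpl29 a single peak of 1173 bp (chr9:106428950-106430122) with a fold of 9.55 (7.32 to 12.25), the highest of the canonical genes. Rpl4, which lines the exit tunnel for the new protein, had 48 fragments at its start, and its highest fold, 8.31, came from another peak of 45 fragments whose summit was 144 bp from the start of Snapc5. Rpl5 and Rpl11, which form the 5S ribonucleoprotein that also binds Mdm2, had 35 and 51 fragments over 2029 and 1710 bp, and their Poisson intervals overlap. The acidic stalk proteins recruit translation factors, and their genes had similar pileups, with 42 fragments at Rplp0, 41 at Rplp1 and 45 at Rplp2. Rpl15 had the longest single stretch, one peak of 2200 bp with 49 fragments (chr14:18269710-18271909). Rpl35 was among the least covered genes with 866 bp, although its pileup of 40 fragments was near the median.

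The 30 small subunit genes ran from 31 to 54 fragments, with a median of 41 where the large subunit had 43, and the ranges overlap almost wholly. Their median fold was 6.18, against 5.57 in the large subunit, on backgrounds of 5.70 and 7.19 fragments, and their covered lengths were 1512 and 1566 bp. With 1 library no test between the subunits was possible. Rps13 and Rps27a were highest with 54 fragments, and Rps13 had the highest fold of the subunit, 8.42. Rps27a, which is made as a fusion with ubiquitin, carried a single peak of 2030 bp (chr11:29547160-29549189). Rps6, whose protein is the classic target of S6 kinase, had 44 fragments, and Rps19, the gene most often mutated in Diamond-Blackfan anaemia, had 47. Rps10 was among the lowest with 31 fragments.

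Wide domains were found at a minority of the genes. Peaks were joined across gaps of up to 1000 bp, and the widest 5% of the joined domains, those of 2001 bp or more, were called wide. An end lay in a wide domain at 14 of 84 members (16.7%) and at 16.9% of all protein-coding genes. Of the 14, 13 were canonical (17.8% of 73), where 11.9% of genes of the canonical length range had such an end. Among them were Rpl15, Rpl27a, Rpl5, Rps27a and Rpl41, which makes the smallest ribosomal protein. Covered length was only weakly related to gene length over the 73 genes (Pearson's r = 0.17, Spearman's rho = 0.15) and to pileup (0.17 and 0.18).

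Ribosomal protein genes often have close neighbours, which can lend them a peak. Another protein-coding gene had an end within 5 kb of 56 of the 73 canonical genes (76.7%), against 46% of all protein-coding genes. The other 17 were all marked as well, where 75.9% of protein-coding genes without such a neighbour were, and their median pileup was 41 fragments, against 43 with a neighbour. A start on the other strand within 1 kb upstream was listed for 8 of the 53 placed canonical genes (15.1%), against 8.04% of all genes with a listed start. The 8 had a median pileup of 41.5 fragments, against 43 in the other 45. The 28 genes that host snoRNAs had a median of 40.5 fragments over 1530 bp, and the 45 that do not had 43 over 1563 bp. Of the 57 snoRNA genes inside canonical members, 14 lay under a peak of their host, in 12 hosts, among them Snord68 in Rpl13 and Snora21 in Rpl23. No share for snoRNA genes in other host genes is given here to set beside that count.

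The promoters of the canonical genes were rich in CpG, and many held the ETS motif. Over the 250 bases before and 50 after the start, the observed over expected CpG ratio had a median of 0.925 in 53 canonical genes and 0.577 in all 17492 genes, and it was at least 0.6 in 46 of 53 (86.8%) and in 48.4% of all genes. The ETS motif CCGGAAG was found on either strand in 22 of 53 (41.5%, 29.3 to 54.9%) and in 11.9% of all. It holds a CpG, as does the SP1 motif, and no share over promoters of like CpG ratio was computed. The SP1 motif GGGCGG was found in 31 of 53 (58.5%, Wilson interval 45.1 to 70.7%), an interval that holds the 46.3% of all genes. The YY1 motif was in 2 (3.77%) and 1.27%, the NRF1 motif in 1 (1.89%) and 1.33%, and the TATA box TATAAA in 4 (7.55%) and 13.3%. No search motif contains another. A match is a description of letters, and the CpG ratio of a promoter was only weakly related to its covered length among these genes (Pearson's r = 0.12, Spearman's rho = 0.12, n = 53).

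The copies of the family ranged from 0 to 57 fragments, where the canonical genes ranged from 31 to 60. To show the range, the 150 bases before the start are given for a canonical gene, for 2 paralogs under a peak and for a paralog without one, 5′ to 3′ on the sense strand, with the ETS and SP1 motifs on either strand in capitals.
Rpl35, chr2:39005132-39005281, minus strand: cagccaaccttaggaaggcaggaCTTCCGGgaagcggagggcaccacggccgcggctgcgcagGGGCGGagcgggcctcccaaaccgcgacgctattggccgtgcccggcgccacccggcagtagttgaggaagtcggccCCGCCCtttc
Rpl39l, chr16:10170078-10170227, plus strand: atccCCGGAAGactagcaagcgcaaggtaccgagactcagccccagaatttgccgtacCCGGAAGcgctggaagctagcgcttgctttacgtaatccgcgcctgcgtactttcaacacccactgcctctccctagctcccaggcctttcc
Rpl10l, chr12:66284402-66284551, minus strand: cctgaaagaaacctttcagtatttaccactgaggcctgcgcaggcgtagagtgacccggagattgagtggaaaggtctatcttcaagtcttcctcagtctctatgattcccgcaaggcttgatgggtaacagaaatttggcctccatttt
Rpl32l, chr10:20208289-20208438, plus strand: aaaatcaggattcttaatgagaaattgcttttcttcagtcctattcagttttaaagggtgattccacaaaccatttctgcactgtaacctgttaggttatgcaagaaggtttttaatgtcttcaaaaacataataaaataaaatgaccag
These hold 17 CpG in Rpl35, 11 in Rpl39l, 4 in Rpl10l and 0 in Rpl32l. Of the 11 copies, the 6 with a peak over the start had CpG ratios of 0.643 to 1.157, and the 5 without had 0.089 to 0.633. The copies were divided in this way after their values were seen, and the gap between the ranges is small.

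The 8 paralogs included 7 marked genes, with 33 to 57 fragments. Rpl10l, Rpl39l and Rpl36al are autosomal and have their parents on X. Rpl10l, on chromosome 12, had a single peak of 1627 bp with 40 fragments (28.6 to 54.5), and its parent Rpl10 had 36. Rpl39l, on chromosome 16, had 1682 bp with 42 fragments, and Rpl39 had 1702 bp with 34. Rpl36al had 43 fragments over 1548 bp, and Rpl36a had 32 over 929 bp. In each of these pairs the autosomal copy had the higher pileup, while the Poisson intervals of the pairs overlap. The peak of Rpl36al lies between 2 genes, and its summit is 999 bp from the start of Mgat2 and 1090 bp upstream of that of Rpl36al.

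The 4 X-linked genes, Rpl10, Rpl36a, Rpl39 and Rps4x, were left out by their chromosome and are given here as values. All 4 were marked, with 36, 32, 34 and 27 fragments and a median of 33, below the canonical median of 43. Their local backgrounds, from 3.79 to 4.47 fragments, lay at or below the lowest background of a canonical gene, 4.47, and their folds, with a median of 6.37, were not lower. A male cell has 1 X chromosome, and copy number and level of the mark per copy cannot be told apart in this list.

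Rps27l, a target of p53, had 51 fragments over 1552 bp, and Rps27 had 43 over 1085 bp. Rpl7l1 had 44 fragments, and 4 peaks covered 2360 bp, of which those at the far end lay nearest to the start of 2310039H08Rik; Rpl7 had 43 fragments over 1408 bp. Rpl22l1, whose expression is known to be held down by Rpl22, had 33 fragments over 1667 bp, and Rpl22 had 39 over 1270 bp. Rpl3l is a paralog of heart and skeletal muscle and had the highest fold of all members, 10.98 (8.36 to 14.17) with 57 fragments. That summit was 56 bp from the start of Msrb1 at the other end of the gene (chr17:24735904-24737194). At the start of Rpl3l itself the nearest peak had 36 fragments and a fold of 4.52, and its summit lay 488 bp downstream. Its parent Rpl3 had 45 fragments over 1140 bp.

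The unmarked paralog Rpl32l, on chromosome 10, is 592 bp long, and the nearest peak was 57861 bp away, where its parent Rpl32 had 42 fragments over 1599 bp. The genes with a retrocopy name had no listed peak at their starts. How reads that match both a copy and its parent were placed is not stated in the sources used here, so a missing peak at a copy does not show that the mark is missing. Rpl37rt had its nearest peak at 8394 bp, where Rpl37 had 44 fragments over 1620 bp. Rps23rg1 held 1 peak of 831 bp with 33 fragments and a fold of 10.04, at 8209 bp downstream of its start and on the low background of 2.39 fragments, where Rps23 had 39 fragments at its start. Rps27rt is 374 bp long with its nearest peak at 2629 bp.

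Rps27rt and its parent can be set side by side base by base. Around their starts the copy and Rps27 share a stretch of 38 bases that begins at the start of the copy, and before the start they share no more than 10 bases in a row. Here 15 bases on each side of the join are shown, with the first 15 shared bases in capitals.
Rps27rt, chr9:114982725-114982754, minus strand: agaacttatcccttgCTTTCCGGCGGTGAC
Rps27, chr3:90213633-90213662, minus strand: tttccgctttcgctcCTTTCCGGCGGTGAC
The shared bases lie downstream of the start and include its first C and T, and the bases before them differ. The parent carried 43 fragments with the summit on the start, and no peak was listed at the copy, where shared reads could not be followed.

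**Figure D5:**
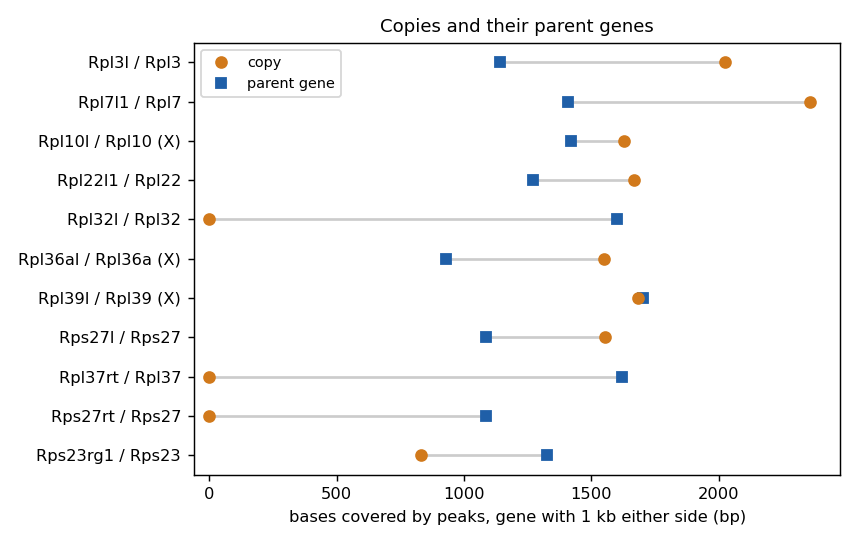
Bases covered by peaks (bp), in the gene with 1 kb either side, for each copy and its parent gene, joined by a line. Rpl32l, Rpl37rt and Rps27rt are at 0 where their parents have 1599, 1620 and 1085 bp, and the other copies lie between 831 and 2360 bp.

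Pseudogenes of the family carried peaks more often than all pseudogenes together. Of 309 genes typed as pseudogenes with an Rpl or Rps name, 145 were marked (46.9%, 41.4 to 52.5%), against 38.6% of all pseudogenes. When moved by 100 kb, 61 (19.7%) held a peak, against 20.6% of all pseudogenes. The median length was 527 bp in the family and 921 bp over all pseudogenes. Away from any protein-coding end by more than 5 kb, 132 of 271 were marked (48.7%, 42.8 to 54.6%), against 38.6% of all such pseudogenes. Their marked members had a median of 30.5 fragments, below the lowest canonical gene, in peaks of 748.5 bp, with a fold of 7.83. The highest was Rps2-ps13 with 64 fragments. Pseudogenes share near-identical exon sequence with their parents, so these values are uncertain for the same reason. Of the 2 genes with a pseudogene name but a coding type, Rpl31-ps12 had 35 fragments and Rpl34-ps1 no peak.

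Other gene groups of protein synthesis and turnover gave similar values. All 78 mitochondrial ribosomal protein genes (Mrpl and Mrps) and all 39 proteasome genes (Psma to Psmd) were marked, each with a median of 44 fragments, beside the 43 of the canonical cytosolic genes. Their median folds were 6.92 and 6.66, and their covered lengths 1460 and 1472 bp. Fau, which encodes a ribosomal protein fused to a ubiquitin-like protein, had 46 fragments. Mrpl49, of the mitochondrial list, had the same pileup, fold of 3.94 and 1032 bp in its single peak, so the peak appears to be shared. All 20 ribosome biogenesis genes and all 16 genes of translation factors and related transcripts were marked, with medians of 41 and 42 fragments. In the translation group an end lay in a wide domain at 7 of 16 (43.8%), against 13 of 73 canonical genes (17.8%), a difference without replicates or test. The full marking of canonical genes was thus shared by these lists. Other traits were also common there, given for mitochondrial ribosomal and then proteasome genes. Another protein-coding gene had an end within 5 kb at 75.6% and 74.4%. Among their 69 and 32 genes with a listed start, a peak lay over one at 92.8% and 96.9%. The CpG ratio was at least 0.6 at 92.8% and 68.8%. A start on the other strand was listed within 1 kb upstream of 34.8% and 18.8%.

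The whole list held 135064 peaks, with summit pileups from 9 to 316 fragments and a median of 27. The depth of the library in fragments is not stated in the sources used here. Of 12 genes known from prospermatogonia 10 were marked, among them Dazl, Ddx4 and Mael, and Nanos2 and Nanos3 were not, a share like the 83.4% of all protein-coding genes. All 5 Sertoli cell markers, 1 of 5 Leydig cell markers and all 6 endothelial and blood markers were marked. At an end of the gene, where 74.5% of all genes had a peak, the counts were 9 of 12, 4 of 5, 1 of 5 and 3 of 6 in the same order, so marking did not set the germ cell list apart. The mark can lie at genes that are not transcribed, and ribosomal protein genes are used in every cell type, so the part of other cells in their peaks was not tested.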

How the data were processed

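H3K4me3 CUT&RUN was run on 1 library. MACS2 2.1.0, Bowtie2 2.5.0, Trim Galore, deepTools 3.5.1, bedtools 2.27.1 and SAMtools 1.16.1 are named, with mm10 and sacCer3, per the submitters' processing notes, which are given here without roles or settings. The authors deposited, for each peak, a fold enrichment at the summit (a ratio of pileup to local background), the −log10 p and −log10 q, and a score, which equals 10 times the −log10 q without decimals in nearly all peaks.

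From these, the whole-number summit pileup and its background were recovered for 135053 of 135064 peaks, where fold is (pileup + 1) divided by (background + 1) and p is a Poisson tail. Intervals are 95%, exact Poisson for pileups and folds and Wilson for shares, and cover only counting error. A single library allows no test, so no p-value is given. A gene's fold and pileup are the highest among its peaks, so they can come from different peaks or from a neighbour's.

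Gene positions came from RefSeq on GRCm38.p6. Start sites and promoter sequences (250 bases before, 50 after) came from a RefSeq table that matched 64 of the 84 members. Distances use the outermost listed start, which can lie inside the annotated gene, and 10 members have several listed starts.

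The members and the lists were chosen with earlier results of these data known. Named genes were the 6 members highest in fold, pileup and covered bases, the 6 lowest in covered bases, members without a peak, paralogs with their parents, the P-stalk genes, Rpsa and Rps27a. Other named genes were chosen after their values were seen, and some genes that the rule names are not reported here. Scripts were tested on simulated data, and ran in Python 3.11.15 with numpy 2.4.6, pandas 2.3.3, scipy 1.17.1 and matplotlib 3.10.9. Alternatives covered windows, peak thresholds, overlap, join gaps and shifts.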

Additional observations from a re-analysis of the deposited data

How the results depend on the processing

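Under all 43 alternative settings, counts over the same genes stayed within 1.5 times the main count. Medians stayed within the interquartile range of the marked members at the main setting. That range was 39 to 46 fragments for pileup, 4.59 to 6.68 for fold and 1273 to 1814 bp for covered length. Settings that restrict the genes are compared by their share. Marked members numbered 81 with windows of 500 or 2500 bp, with a pileup of at least 20 and with an overlap of at least 200 bp, 80 with the summit inside the window or with gene ends only, 75 with a −log10 q of at least 10 and 57 with a fold of at least 5. At that last threshold the members' share, 67.9%, lay under that of all protein-coding genes, 71.2%, and above that of genes of the canonical length range, 52.9%. Genes without a peak count as below the threshold in these shares. Without genes that have a neighbouring gene end, 21 of 22 members and 8967 of 11818 genes (75.9%) were marked, and in the canonical length range 5375 of 7274 genes (73.9%), against 18243 of all 21887. Members in wide domains numbered 19 with a join gap of 500 bp and 12 with 3000 bp, against 14. Moved windows held a peak at 22, 29 and 23 members with shifts of 50 kb, 500 kb and 100 kb the other way, against 24. The last shift and the restriction to genes of similar length were chosen after seeing the data. A summit lay within 500 bp of a listed start at 49 and within 1 kb at 59 of 64 members. The shares over all genes with a listed start were 58.3% and 71.3%. The median pileup ran from 40.5 to 43 fragments, the median fold from 5.76 to 6.27 and the median covered length from 1290 to 1641.5 bp.

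No paired analysis was possible because there was 1 H3K4me3 library and no test. Without replicates, differences between genes carry counting error only, and at a median of 43 fragments most members could not be told apart by pileup. The share of marked genes reaches its ceiling for many lists, so it does not rank them. The 20 members without a listed start are missing from every statement on position and promoter letters.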
